A study of Mus musculus with 9 samples.

Results

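The receptors through which autonomic nerves and their peptides act on the salivary gland were read out as mRNA in the adult male mouse submandibular gland (SMG). The 9 receptor genes were taken by symbol: the muscarinic receptors Chrm1 and Chrm3, the adrenergic receptors Adra1a, Adra1b, Adra2a and Adrb1, the receptors for vasoactive intestinal peptide (VIP) Vipr1 and Vipr2, and the substance P receptor Tacr1. All 9 had a row among the 48733 rows of the unfiltered count table. Only 7 were among the 17562 rows of the normalized table, which left out Adra2a and Tacr1. Each library is RNA-seq of SMG tissue from a male mouse. The 4 wild-type (WT) libraries were compared with 5 libraries of Hs3st3a1;Hs3st3b1 double knockouts (DKO), which lack a pair of enzymes that add 3-O-sulfate to heparan sulfate. The parent knockout strains were kept on a C57BL/6 background. The DKO allele joins a frameshift deletion in exon 1 of Hs3st3a1 with a cassette insertion in Hs3st3b1 on the same chromosome, is constitutive, and was derived from several founders, whose share in these libraries is not given in the sources used here, nor is the animals' age beyond adult. The libraries were treated as separate samples because the labels number them separately, so p-values measure the spread between these glands.

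Saliva is secreted under nerve control. Parasympathetic nerves release acetylcholine, which acts through Gq-coupled muscarinic receptors, raises calcium in acinar cells and drives fluid secretion. Sympathetic noradrenaline acts through beta-adrenergic receptors, which couple to Gs and cAMP and promote protein exocytosis, and through alpha-adrenergic receptors, which couple to Gq or Gi. VIP and substance P are released with the classical transmitters and act through Gs-coupled and Gq-coupled receptors respectively. Myoepithelial cells, the contractile cells around the acini, are also under autonomic control.

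The WT libraries held 20653492 to 37870519 counts and the DKO libraries 17053747 to 34683690. Hs3st3a1 had 3 to 14 counts in WT and 0 in every DKO library, and Hs3st3b1 had 67 to 216 in WT and 7 to 45 in DKO. Both were lower in DKO, the direction that the genotype labels imply, though Hs3st3b1 reads remained in every DKO library. The acinar markers Pip, Car6 and Mucl2 and the granular duct kallikreins were abundant in every library, which fits the labelled tissue. Libraries DKO 1, WT 3 and DKO 4 stood out by the highest counts of Bpifa2 or Muc19, markers of neighbouring glands. In DKO 1 the parotid secretory gene Bpifa2 reached 253648 counts, and the sublingual mucin Muc19 had 172 counts in WT 3 and 155 in DKO 4. Bpifa2 was read in every library, with 99 to 1040 counts in WT and at least 597 in DKO. Every DKO library, at 43.1 CPM or more on the deposited scale, was above every WT library, at 26.5 or less. Leaving out DKO 1, WT 3 and DKO 4 therefore does not remove these transcripts. The labels give no sequencing batch, so no within-batch values could be given.

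Adra1a was by far the most abundant of the 9 receptors in both genotypes. It was the only member whose DKO values all lay below the WT values, as did those of 3.5% of all genes tested. Its mean was 27.1% lower in DKO in the edgeR fit, a difference that missed the adjusted threshold in that fit and passed it in DESeq2. Chrm1, Chrm3, Adrb1 and Vipr1 overlapped between genotypes and passed neither test. Adra1b and Vipr2 were detected in every library at a few counts, and Adra2a and Tacr1 were at or near 0. By edgeR, 0 of the 5 members with enough reads to be tested had an adjusted p under 0.05, beside 0.629% of all 13842 genes tested in either direction and 0.462% lower in DKO. At an unadjusted p under 0.05 there was 1 of the 5, Adra1a, which was lower, beside 14.5% of genes in either direction and 7.6% lower. By DESeq2 Adra1a was the 1 member called, beside 4.45% of genes in either direction and 2.68% lower. The 5 log2 fold changes had a median of 0.17, 3 above and 2 below 0, and the median over all genes tested was 0.01. Levels are given on the deposited CPM scale, in which each library's counts are divided by a TMM-scaled library size (normalized CPM). These are whole-gland libraries, in which fewer cells of a type and less RNA per cell cannot be told apart.

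**Figure D1:**
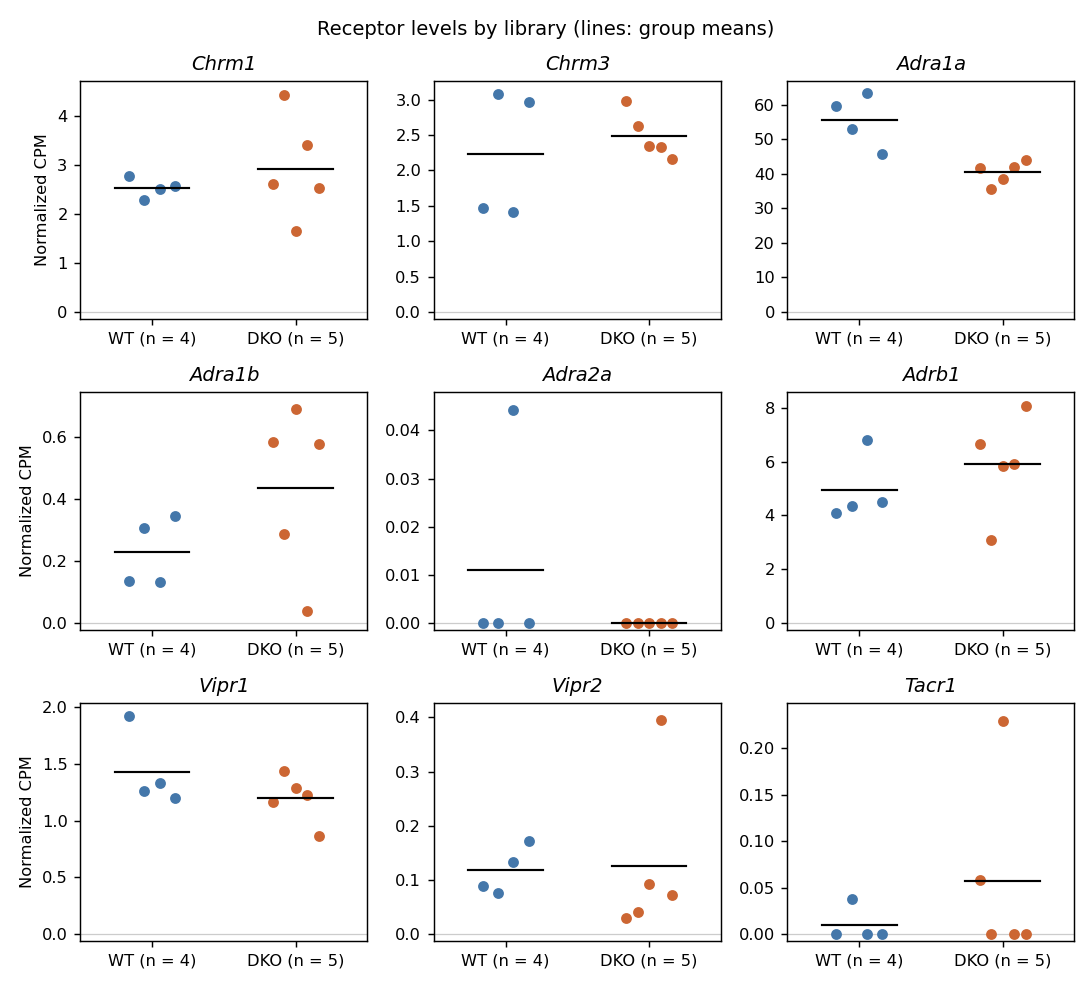
Normalized CPM (y axis, a separate linear scale for each gene) of the 9 receptors in the 4 WT and 5 DKO libraries (points), with lines at the group means. Adra1a is the panel in which the groups separate, with DKO at 35.7 to 44.0 and WT at 45.85 to 63.6.

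Adra1a encodes an alpha-1 adrenergic receptor that couples to Gq and calcium release. It lies on chr14:66635251-66771168, plus strand, in GRCm38 (GENCODE M21), with 5 exon blocks and 8728 bp of exon. Its normalized CPM was 59.8, 53.0, 63.6 and 45.85 in WT 1 to 4, and 41.8, 35.7, 38.5, 42.1 and 44.0 in DKO 1 to 5. All 5 DKO libraries were below all 4 WT libraries, and the nearest pair was DKO 5 and WT 4. The means were 55.5 ± 7.81 (SD, n = 4) in WT and 40.4 ± 3.296 (SD, n = 5) in DKO. The log2 fold change was -0.46 (SE 0.11, 95% interval -0.70 to -0.21), for which the quasi-likelihood test of edgeR gave an adjusted p of 0.0791 and the Wald test of DESeq2 0.0127. In the exact permutation test on the mean difference, two-sided, over all 126 assignments of the 9 libraries to groups of 4 and 5, p was 0.00794, the smallest value those can give. That non-overlap was found for 1 of the 5 members tested. Beside it, 3.5% of all genes tested were lower in DKO without overlap, and 5.95% did not overlap in either direction. The Adra1a counts ran from 610 to 2870, so counting error was a small share of the spread. The coefficient of variation was 14.1% in WT against 2.45% from counting, and 8.15% against 3.22% in DKO. Across 20 alternative fits the log2 fold change stayed negative, from -0.75 to -0.39, with adjusted p from 0.0127 to 0.259. The threshold was passed in 2 of them, DESeq2 and the fit without scaling factors. The latter gave the -0.75 and moved the median of all genes tested to -0.28. The next lowest log2 fold change of Adra1a was -0.54, without WT 4. Without WT 3, DKO 1 and DKO 4, the libraries that stood out by Bpifa2 or Muc19, the Adra1a log2 fold change was -0.43, with an adjusted p of 0.221 by edgeR.

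Marker genes of several cell types also differed between the genotypes. For scale, 47.5% of all genes tested had a log2 fold change below 0. By edgeR 7.6% were lower at an unadjusted p under 0.05 and 0.462% at the adjusted threshold. By DESeq2 2.68% were called lower, and 3.5% of genes were lower without overlap. In either direction the 4 shares were 14.5%, 0.629%, 4.45% and 5.95%. Of the 7 granular duct markers, 6 lay lower in every DKO library than in any WT library, and their summed normalized CPM was 35380 to 87060 in WT and 5087 to 28130 in DKO. By edgeR 0 of the 7 passed the adjusted threshold and 6 had an unadjusted p under 0.05, and by DESeq2 6 passed. Egf, a growth factor stored in granular ducts, had a log2 difference of -1.91 with an adjusted p of 0.067 by edgeR. Of the 8 myoepithelial markers, 5 were lower without overlap, and the contractile genes Myh11, Tagln and Mylk fell by 1.06, 1.47 and 1.33 on the log2 scale, each with an adjusted p of at most 0.0479 by edgeR. Krt14, Krt5 and Trp63 overlapped between genotypes, at -0.70, -0.53 and -0.12, with adjusted p of 0.057, 0.22 and 0.822 by edgeR. The 8 myoepithelial markers summed to 628 to 1011 normalized CPM in WT and 248 to 570 in DKO. Acta2 alone was at 364 to 564 in WT and 145 to 337 in DKO. Summed acinar marker levels were higher in every DKO library, at 307500 to 548600 against 198400 to 293700 in WT, with 7 of 7 tested markers higher. Of these 0 passed the adjusted threshold in edgeR, 4 had an unadjusted p under 0.05, and 3 passed in DESeq2. No defining granular duct, myoepithelial or acinar marker was at 0 except Smr3a, which had 0 or 1 counts outside DKO 1. All 5 fibroblast markers were lower in mean, with overlapping groups, a median log2 fold change of -0.64, 0 past the adjusted threshold in edgeR or DESeq2 and 2 at an unadjusted p under 0.05. Their summed normalized CPM was 320.7 to 530.0 in WT and 135 to 396 in DKO. Of 6 other duct markers, Krt7 and Krt19 were lower without overlap, with log2 fold changes of -0.47 and -1.13 and adjusted p of 0.0618 and 0.0744 by edgeR and 0.00109 and 0.00595 by DESeq2, and the list summed to 1349 to 1502 in WT and 1128 to 1500 in DKO. The part of these cell types in the Adra1a difference was not tested. The 6 vascular smooth muscle and pericyte markers overlapped between genotypes, with summed levels of 11.6 to 15.3 in WT and 12.2 to 16.7 in DKO.

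Adra1b, the other alpha-1 receptor measured, shares the Gq coupling of Adra1a. It lies on chr11:43774606-43901210, minus strand. Its raw counts were 3, 8, 6 and 8 in WT 1 to 4 and 20, 7, 15, 1 and 8 in DKO 1 to 5. DKO 1, 3 and 5 lay above all WT libraries in normalized CPM and DKO 4 lay below them, so the groups overlapped. The means were 0.229 ± 0.111 (SD, n = 4) in WT and 0.436 ± 0.267 (SD, n = 5) in DKO, with p = 0.206 in the exact permutation test, two-sided. Adra1b was too low for the fit across genes, and its coefficient of variation of 48.6% in WT stood beside the 40.0% that counting alone gives, and that of 61.3% in DKO beside 31.3%.

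Per kilobase of exon, Adra1a made up almost all of the alpha-1 receptor mRNA that these rows hold. Its share of Adra1a plus Adra1b was 99.4%, 98.5%, 99.5% and 98.1% in WT 1 to 4 and 96.5%, 98.0%, 95.6%, 99.8% and 96.7% in DKO 1 to 5. DKO 4, with its single Adra1b count, had the highest share of the 9 libraries, and the other DKO libraries lay below all WT. The mean share was 98.9% ± 0.673 (SD, n = 4) in WT and 97.3% ± 1.61 (SD, n = 5) in DKO, with p = 0.119 in the exact permutation test, two-sided. With each other library left out in turn, the exact permutation p was 0.125 to 0.232. Without DKO 4 the groups no longer overlap by construction, so p takes the smallest value that 4 against 4 allows in the exact test, 0.0286, and the difference was -2.18 percentage points.

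Adra2a encodes an alpha-2 receptor that couples to Gi and lowers cAMP, and is best known as a presynaptic autoreceptor of sympathetic nerves. It is a gene of 1 exon on chr19:54044151-54048982. It had 2 counts in WT 3 and 0 in the other 8 libraries. A count of 0 allows a level of up to 3 counts, or 0.0665 to 0.217 normalized CPM depending on the library, a bound that covers counting error only. No fold is given, since both groups were under that limit.

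Adrb1, the beta-1 receptor, couples to Gs and cAMP and is tied in salivary acini to protein secretion. It lies on chr19:56722199-56733113. Its normalized CPM was 4.11, 4.34, 6.80 and 4.51 in WT 1 to 4, and 6.66, 3.08, 5.84, 5.93 and 8.09 in DKO 1 to 5. WT 3 stood above the other WT libraries and DKO 2 was the lowest of all 9, so the groups overlapped. The means were 4.94 ± 1.25 (SD, n = 4) and 5.92 ± 1.83 (SD, n = 5), a log2 fold change of 0.25 (SE 0.25, 95% interval -0.30 to 0.79), with an adjusted p of 0.727 by edgeR. On the linear scale that interval runs from 0.812 to 1.73 times the WT level. Without scaling factors the sign turned, to -0.059, and without WT 3 the log2 fold change was 0.45.

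The muscarinic receptors were present at similar, low levels. Chrm1, which couples to Gq, lies on chr19:8663789-8683587 and shares 329 bp of exon with Gm22820, a small RNA gene on the opposite strand that had 0 counts. The libraries do not mark strand. Its normalized CPM was 2.77, 2.29, 2.504 and 2.58 in WT 1 to 4, and 2.60, 4.43, 1.65, 3.40 and 2.53 in DKO 1 to 5. The WT libraries lay close together and the DKO libraries reached both above and below them. The WT coefficient of variation, 7.88%, was under the 11.6% that counting gives, while in DKO it was 35.8% against 11.9%. The means were 2.53 ± 0.200 (SD, n = 4) and 2.92 ± 1.05 (SD, n = 5), a log2 fold change of 0.21 (SE 0.25, 95% interval -0.34 to 0.77), with an adjusted p of 0.771 by edgeR. As a fold the interval runs from 0.792 to 1.70. The log2 fold change was 0.014 without DKO 2 and 0.37 without DKO 3.

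Chrm3, the Gq-coupled receptor best known for driving salivary fluid secretion, lies on chr13:9875486-10360847, minus strand. Its normalized CPM was 1.47, 3.09, 1.42 and 2.96 in WT 1 to 4, and 2.98, 2.63, 2.34, 2.33 and 2.17 in DKO 1 to 5. WT 1 and WT 3 were the lowest of the 9 libraries and WT 2 was the highest, so all DKO values lay inside the WT range. The means were 2.23 ± 0.913 (SD, n = 4) and 2.49 ± 0.320 (SD, n = 5). The log2 fold change was 0.17 (SE 0.27, 95% interval -0.41 to 0.76), with an adjusted p of 0.838 by edgeR. It was -0.0067 without WT 3, -0.077 without WT 3, DKO 1 and DKO 4 together, and -0.11 without scaling factors. The share of Chrm1 in Chrm1 plus Chrm3, per kilobase, was 64.4%, 41.7%, 63.0% and 45.6% in WT 1 to 4 and 45.7%, 61.9%, 40.5%, 58.4% and 52.9% in DKO 1 to 5. Neither receptor led throughout in either genotype. The mean share was 53.7% ± 11.7 (SD, n = 4) in WT and 51.9% ± 8.85 (SD, n = 5) in DKO, with p = 0.77 in the exact permutation test, two-sided.

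**Figure D2:**
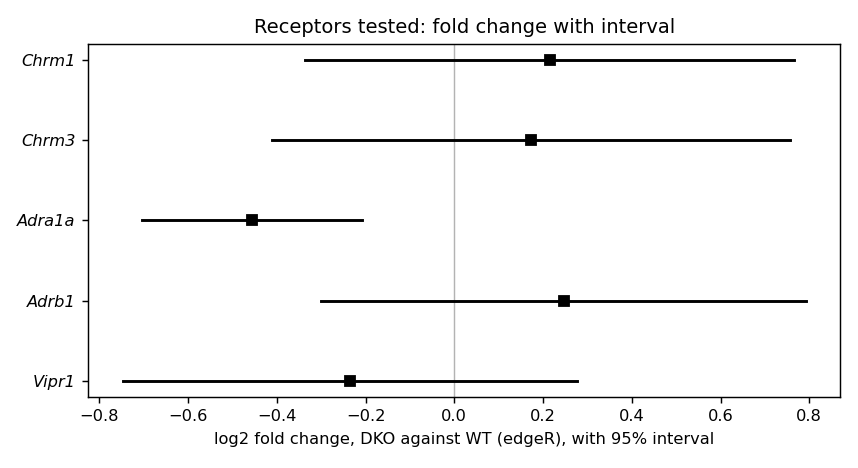
The log2 fold change of DKO against WT (x axis) from edgeR, with 95% intervals as bars, for the 5 members tested. The interval of Adra1a, -0.70 to -0.21, is the only one of the 5 that does not cross 0.

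Vipr1 encodes a receptor for VIP and the related peptide PACAP that couples to Gs and cAMP. It lies on chr9:121642716-121672954. Its normalized CPM was 1.92, 1.26, 1.33 and 1.202 in WT 1 to 4, and 1.17, 1.44, 1.29, 1.23 and 0.866 in DKO 1 to 5. WT 1 was the highest and DKO 5 the lowest, and the other 7 libraries lay together. The means were 1.43 ± 0.333 (SD, n = 4) and 1.197 ± 0.210 (SD, n = 5). The log2 fold change was -0.24 (SE 0.23, 95% interval -0.75 to 0.28), with an adjusted p of 0.721 by edgeR, and it was -0.07 without WT 1. With 12 to 60 counts a library, counting alone gives a coefficient of variation of 15.6% in WT and 18.5% in DKO, beside the 23.3% and 17.6% observed.

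Vipr2, the second VIP receptor and also Gs-coupled, lies on chr12:116077726-116146261. It had 2, 2, 6 and 4 counts in WT 1 to 4 and 1, 1, 2, 10 and 1 in DKO 1 to 5. DKO 4 stood above the other 8 libraries, which differed by a few counts. Its mean normalized CPM was 0.118 ± 0.0435 (SD, n = 4) in WT and 0.126 ± 0.153 (SD, n = 5) in DKO, with p = 0.984 in the exact permutation test, two-sided. Per kilobase, Vipr1 was 90.0% ± 4.47 (SD, n = 4) of Vipr1 plus Vipr2 in WT and 89.1% ± 10.8 (SD, n = 5) in DKO. Its share ran from 84.3% to 94.3% in WT, and from 90.2% to 96.9% in DKO apart from 70.5% in DKO 4, with p = 0.944 in the exact permutation test, two-sided.

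Tacr1 encodes the Gq-coupled substance P receptor and lies on chr6:82402334-82560104. It had 1 count in WT 2, 2 in DKO 1, 5 in DKO 3 and 0 in the other 6 libraries. Only DKO 3, at 0.230 normalized CPM, was above the 3 counts that a count of 0 allows. No fold is given for it.

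The order of the receptors by normalized CPM per kilobase of exon was the same in both genotypes down to Vipr2. In WT it ran from Adra1a at 6.36 ± 0.895 through Adrb1 at 1.46 ± 0.370, Chrm1 at 0.391 ± 0.0308, Chrm3 at 0.357 ± 0.146 and Vipr1 at 0.246 ± 0.0574 to Adra1b at 0.0677 ± 0.0329 and Vipr2 at 0.0263 ± 0.00975 (SD, n = 4). Adra2a and Tacr1 came last. Among WT neighbours, the ranges of Chrm1 and Chrm3 overlapped, and so did those of Chrm3 and Vipr1. In DKO the levels were 4.63 ± 0.378 for Adra1a, 1.75 ± 0.540 for Adrb1, 0.451 ± 0.161 for Chrm1, 0.398 ± 0.0512 for Chrm3, 0.206 ± 0.0362 for Vipr1, 0.129 ± 0.0790 for Adra1b and 0.0282 ± 0.0342 for Vipr2 (SD, n = 5). The DKO ranges of Vipr1 and Adra1b overlapped, as did those of Adra1b and Vipr2, and those of Chrm3 and Vipr1 were apart. The ratio of the Adra1a mean to the next, Adrb1, was 4.36 in WT and 2.65 in DKO, and the ranges of these receptors were apart in each genotype. Among the WT per-kilobase levels of all genes tested, Adra1a stood at percentile 76.5, Adrb1 at 46.7, Chrm1 at 20.02, Chrm3 at 18.4 and Vipr1 at 12.3.

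**Figure D3:**
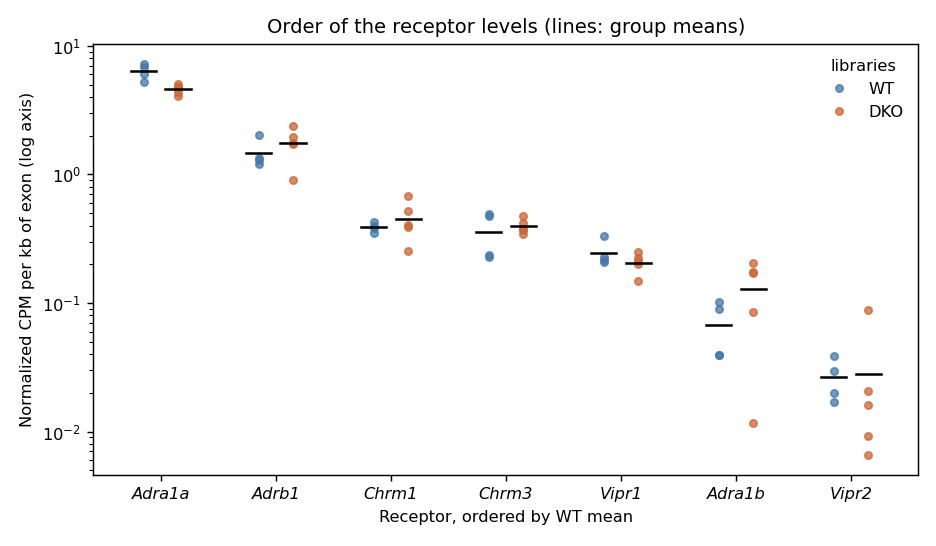
Normalized CPM per kilobase of exon (y axis, log scale) for the 7 receptors with counts in every library, ordered by the WT mean, with points for libraries and lines for group means. Adra1a leads at 6.36 in WT and 4.63 in DKO, and Vipr2 is lowest at 0.0263 and 0.0282. Adra2a and Tacr1, at 0 in most libraries, are not drawn.

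Ratios within a library need no scaling between libraries, and they were examined for Adra1a after its levels had been seen, so they are given with no test. The per-kilobase ratio of Adra1a to Adrb1 was 5.64, 4.73, 3.62 and 3.94 in WT 1 to 4 and 2.43, 4.495, 2.56, 2.75 and 2.11 in DKO 1 to 5. All DKO libraries except DKO 2 were below all WT libraries. Against Chrm1 the ratio ran from 13.2 to 18.9 in WT and from 5.99 to 17.3 in DKO, with 4 of 5 DKO libraries below all WT. Against Chrm3 it ran from 11.1 to 32.1 in WT and from 9.74 to 14.6 in DKO, with 2 of 5 below all WT. Against Vipr1 the ranges were 20.7 to 31.8 and 16.5 to 33.8, again with 2 of 5 below. The mean log2 difference of the ratio, DKO minus WT, was -0.67 to Adrb1, -0.58 to Chrm1, -0.69 to Chrm3 and -0.20 to Vipr1.

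**Figure D4:**
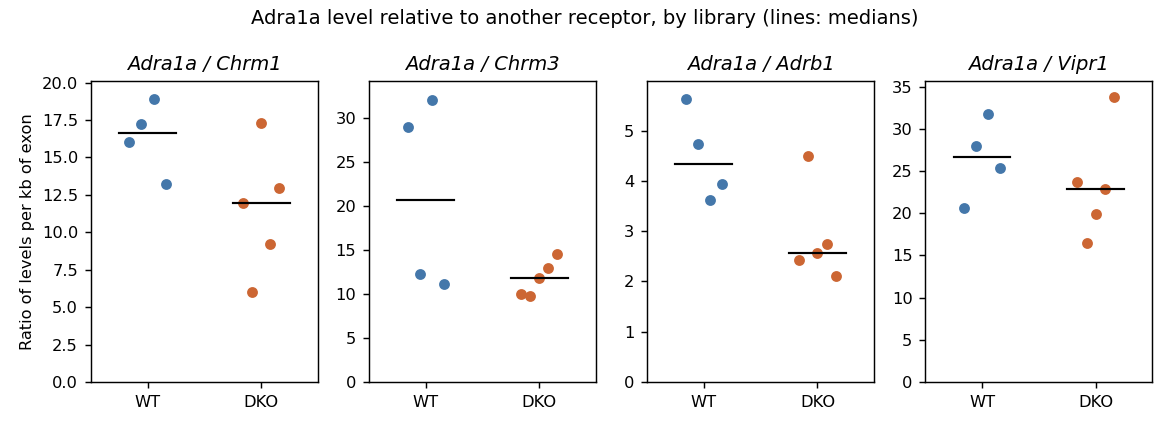
The level of Adra1a per kilobase divided by that of Chrm1, Chrm3, Adrb1 or Vipr1 in the same library (y axis, linear from 0), with lines at group medians. The DKO medians of 11.9, 11.8, 2.56 and 22.8 lie below the WT medians of 16.6, 20.7, 4.33 and 26.7, and the groups overlap in each panel.

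Other receptors of the same families were mostly absent or near the counting limit. Adcyap1r1, the PACAP receptor, was at 0.879 ± 0.165 and 0.822 ± 0.186 normalized CPM, with a log2 fold change of -0.07 (SE 0.27) and an adjusted p of 0.94 by edgeR. Chrm5 had 0 counts in every library, and Adra1d, Adra2c and Adrb3 did not exceed 3 counts in any.

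The genes whose log2 level ran most nearly parallel to each receptor over the 9 libraries were found by the SD of the log2 ratio, which is small where a pair keeps a constant ratio. For Adra1a these included Trmo, at an SD of 0.0844, beside a median of 0.411 over all genes tested and an SD of 0.281 for Adra1a itself. Trmo had a log2 fold change of -0.45. For Chrm1 they were Otud4 at 0.113 and 6030443J06Rik at 0.139, and for Vipr1 Capn6 at 0.0983 and Spats2 at 0.109. The nearest genes to Chrm3, Bmpr2 and Siah1a, kept a looser ratio with SDs of 0.182 and 0.189, and those to Adrb1, Fam110c and Gm9920, had 0.172 and 0.177. These are descriptions over the 9 libraries, which the genes share.

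The signalling genes around these receptors were read from 7 lists of 131 genes, of which 81 had enough counts to be tested. By edgeR 0 of the 81 passed the adjusted threshold, beside 0.629% of all genes tested. An unadjusted p under 0.05 was found for 14 (9 higher and 5 lower), beside 14.5% of all genes tested. By DESeq2 4 passed, 3 higher and 1 lower, beside 4.45% of genes. The groups did not overlap for 9 of the 81, beside 5.95% of all genes tested. In all, 43 were higher and 38 lower, with a median log2 fold change of 0.02, beside 0.01 over all genes tested.

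Among the transmitters and neuropeptides, 8 of 20 genes were tested, 4 higher and 4 lower. Vip, which encodes the ligand of Vipr1 and Vipr2, had 3 to 26 counts in WT and 5 to 94 in DKO, with overlapping groups, a log2 fold change of 1.85 (SE 0.73) and an adjusted p of 0.269 by edgeR. Tac1, the substance P precursor, was at 1.48 ± 0.727 normalized CPM in WT and 1.17 ± 0.598 in DKO, a log2 fold change of -0.31 with an adjusted p of 0.799 by edgeR. Bche, a cholinesterase that breaks down choline esters, lay at 1.07 to 1.503 in WT and 1.62 to 3.28 in DKO without overlap, a log2 fold change of 0.94 (SE 0.24) with an adjusted p of 0.0859 by edgeR and 0.0139 by DESeq2. Maob, a monoamine oxidase, had a log2 fold change of -0.44 and an adjusted p of 0.691 by edgeR. The noradrenaline synthesis gene Th did not exceed 1 count in any library, and Npy had 0 counts in all. The neuron marker list summed to 3.301 to 6.90 normalized CPM in WT and 2.09 to 10.9 in DKO. The 5 of its 9 genes tested had log2 fold changes from 0.01 (Prph) to 1.08 (Snap25), with 0 past the adjusted threshold in edgeR or DESeq2. In edgeR 1 of these had an unadjusted p under 0.05, beside 14.5% of all genes tested. Of the neuron markers too low to test, Syt1 had 4 to 9 counts in WT and 0 to 2 in DKO, with overlapping normalized CPM. Elavl3 and Elavl4, also too low to test, were higher in mean in DKO. The part of nerve RNA in the Vip values was not tested.

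Of 21 genes of Gq and calcium release, 17 were tested, 0 passed in edgeR or DESeq2 and 3 had an unadjusted p under 0.05 in edgeR (1 higher and 2 lower, beside 14.5% of all genes tested), with a median log2 fold change of -0.05. The groups did not overlap for 3 of the 17, beside 5.95% of all genes tested. Itpr3, an inositol trisphosphate receptor that releases stored calcium, lay at 6.21 to 8.31 in WT and 8.53 to 12.4 normalized CPM in DKO, a log2 fold change of 0.43 (SE 0.14) with an adjusted p of 0.173 by edgeR. Itpr2, which has the same role, lay at 28.5 to 34.0 in WT and 18.9 to 27.6 in DKO, a log2 fold change of -0.38 with an adjusted p of 0.156 by edgeR. Neither overlapped between genotypes, and they lay in opposite directions. Plcb4, a phospholipase C that Gq activates, was also lower without overlap, at -0.26 and an adjusted p of 0.252 by edgeR. Itpr2 and Plcb4 were named after their values were seen. The store-operated calcium channel subunit Orai2 had a log2 fold change of -0.64 with an adjusted p of 0.407, Prkcb, a protein kinase C, -0.63 with 0.548, and the Gq-class subunit Gna14 0.20 with 0.833, all by edgeR.

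Of 24 genes of Gs, Gi and cAMP signalling, 21 were tested, 13 higher and 8 lower, with a median log2 fold change of 0.06. By edgeR 0 passed the adjusted threshold and 5 had an unadjusted p under 0.05, 2 higher and 3 lower, beside 14.5% of all genes tested. By DESeq2 1 passed, beside 4.45% of genes. The groups did not overlap for 2 of the 21, beside 5.95% of all genes tested. Prkar1b, a regulatory subunit of protein kinase A, lay at 17.6 to 22.6 normalized CPM in WT and 13.4 to 16.6 in DKO without overlap, a log2 fold change of -0.45 (SE 0.11) with an adjusted p of 0.0709 by edgeR and 0.00858 by DESeq2. Prkar2b, another regulatory subunit, and Rapgef3, a cAMP-activated exchange factor, had log2 fold changes of 0.48 and 0.48, with adjusted p of 0.29 and 0.37 by edgeR. Adcy3, an adenylyl cyclase, was at -0.66 with an adjusted p of 0.3 by edgeR. Of 15 G protein beta and gamma genes, 10 were tested, and Gng7, a gamma subunit, lay at 7.09 to 8.97 in WT and 9.80 to 14.1 in DKO without overlap. Its log2 fold change was 0.62 (SE 0.13), with an adjusted p of 0.0506 by edgeR and 0.00142 by DESeq2. The lowest of that list was Gng4, at -0.44 with an adjusted p of 0.452 by edgeR. Gng11 had -0.25 with 0.557 and Gnb5 0.10 with 0.852, also by edgeR.

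Of 23 receptor kinase, arrestin and RGS genes, whose products shut receptor signalling off, 16 were tested and 0 passed in edgeR or DESeq2. In edgeR 2 had an unadjusted p under 0.05, beside 14.5% of all genes tested. Rgs20 was highest, with a log2 fold change of 1.004, 6 to 11 counts in WT and 8 to 30 in DKO, and an adjusted p of 0.291 by edgeR, followed by Rgs12 at 0.30 with 0.645. Rgs11 and Rgs10 were lowest at -0.45 and -0.40, with adjusted p of 0.383 and 0.384 by edgeR. Among 17 other transmitter and peptide receptors 7 were tested, 5 higher and 2 lower. By edgeR 0 passed the adjusted threshold and 1 had an unadjusted p under 0.05, beside 14.5% of all genes tested. By DESeq2 1 passed, beside 4.45% of genes. The purinergic receptor P2rx4 lay at 210.5 to 216.3 normalized CPM in WT and 217.3 to 287.1 in DKO without overlap. That was 1 of the 7, beside 5.95% of all genes tested. Its log2 fold change was 0.21, with an adjusted p of 0.388 by edgeR. Ramp1, the accessory subunit that makes Calcrl a receptor for calcitonin gene-related peptide, had 1.88 to 2.17 normalized CPM in WT and 1.62 to 8.32 in DKO, a log2 fold change of 1.29 (SE 0.39) with an adjusted p of 0.139 by edgeR and 0.0216 by DESeq2. The related subunits Ramp3 and Ramp2 were at 0.41 and -0.23, with adjusted p of 0.464 and 0.75 by edgeR, and the purinergic receptor P2ry1 at -0.64 with 0.442.

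**Figure D5:**
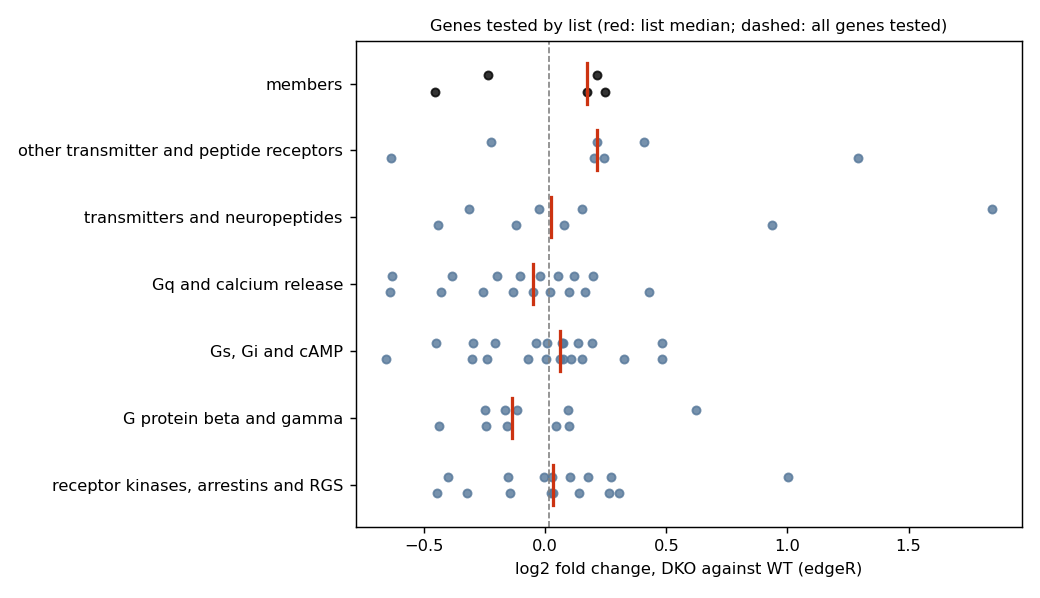
The log2 fold change of DKO against WT by edgeR (x axis) for each tested gene of the members and of 6 of the signalling lists, with red lines at list medians and a dashed line at 0.01, the median of all genes tested. List medians run from -0.14 to 0.21, and the gene farthest from 0 is Vip at 1.85.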

How the data were processed

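The submitters' processing notes name STAR 2.5.2a and the builds GRCm38, mm10 and GRCh38 with no role; the counting tool and annotation are not given in the sources used here. Libraries were unstranded (Nextera XT). The authors deposited raw counts per gene, unfiltered and filtered, and a normalized signal on a CPM scale, from which 100.0% of 158058 values gave whole counts within 0.01 after 1 factor per library. That factor scaled the unfiltered counts to normalized CPM; exon lengths were from GENCODE M21.

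Counts were tested with edgeR 4.0.16 (quasi-likelihood, legacy dispersion, TMM, filterByExpr with minimum count 10 and total 15) with genotype as the single term and Benjamini-Hochberg adjustment over 13842 genes; DESeq2 1.42.0 and limma 3.58.1 were alternatives. Single values and shares used exact permutation over 126 splits, counting absolute mean differences at least as large (9 levels and 3 shares, not adjusted over the members alone). Scripts were tested on simulated data. Members and lists were chosen with earlier results of these data known. Named genes were the members, listed genes with an adjusted p under 0.05, the 2 highest and 2 lowest tested genes of each signalling list, and the 2 genes most parallel to each member with a mean of at least 20 counts. Genes used as checks or examples (deleted genes, markers, family receptors and ligands near 0, Itpr2, Plcb4, P2rx4) were added after their values were seen. The labels do not state whether replicate numbers pair the samples, and the reported fit used no pairing. Some genes that the rule names are not reported here.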

Additional observations from a re-analysis of the deposited data

Results flagged for a closer look

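A single library stood far from the rest of its group in 6 of the 23 groups of values examined, by Dixon's test at the 95% level. Chance marks about 1 in 20 groups of continuous values, a rate that does not hold for groups of a few counts, in which a lone count among zeros is always marked, nor for the Vipr1 share, which repeats the Vipr2 value of the same library. Adrb1 in WT 3 was 6.80 normalized CPM, from 307 counts, against 4.11 to 4.51 in the other WT libraries. Vipr2 in DKO 4 was 0.395 from 10 counts, against 0.0292 to 0.0919 in the other DKO libraries, and the share of Vipr1 in Vipr1 plus Vipr2 was accordingly 70.5% there, against 90.2% to 96.9%. The other 3 rest on 1 to 5 counts: Adra2a in WT 3 at 0.0443 normalized CPM, Tacr1 in WT 2 at 0.0381, and Tacr1 in DKO 3 at 0.230. WT 3 and DKO 4 had the highest Muc19 counts, and the part of transcripts of neighbouring glands in these values was not tested.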

How the results depend on the processing

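The count of members called was 0 in the reported fit and 1 (Adra1a) under DESeq2 and without scaling factors, which moved the median of all genes tested to -0.28; it was 0 under the other 18 alternatives. The 81 signalling genes tested gave 0 calls, 4 under DESeq2, 1 with no filter on low counts, 1 without scaling factors, and 0 to 3 when a replicate was left out (3 without DKO 4). The count of members with an exact p under 0.05 was 1, or 2 without scaling factors. Over all genes tested, 87 were called, against 616 with DESeq2, 148 with limma-voom, 347 unfiltered and 357 without scaling factors. The count was 5 with upper quartile factors or without the 20 most abundant genes. Leaving out a replicate gave 0 to 441, and leaving out the 3 libraries WT 3, DKO 1 and DKO 4 gave 16. The replicate block gave 0 calls over all genes, 0 among the members and 0 among the signalling genes; the same-numbered samples deviated with correlations of 0.014 to 0.298, and 5 of 8 correlated best with their own number. Signs turned for Chrm1 (-0.051), Chrm3 (-0.11) and Adrb1 (-0.059) without scaling factors, and for Chrm3 also without WT 3 (-0.0067, in a range up to 0.37 over the left-out replicates) and without those 3 libraries (-0.077); none of these passed a threshold, and the cause was not tested. Leaving out a replicate moved the difference in the Chrm1 share from -5.78 to 1.81 points, in the Vipr1 share from -2.81 to 3.79 and in the Adra1a share from -2.18 to -1.14. Leaving out length scaling kept the direction of all 3. No scaling, the edgeR 4 dispersion and the 3-library exclusion were chosen after seeing the data. Members under about 20 counts allow only large differences to be seen.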
